A study of Rattus norvegicus with 24 samples.

Results

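The genes described here encode proteins that remodel chromatin or that write, remove and read marks on histones. They were taken by symbol from the platform annotation of both arrays of a rat kidney study. A member was any probe set whose single symbol was Ubn2, Mphosph8 or Nipbl, or began with Kmt, Mll, Kdm, Jmjd, Hdac, Sirt, Smarc, Chd, Arid, Brd, Setd, Ehmt, Ezh or Phf. A probe set is the group of short probes that the array design assigns to a transcript, and a gene can have several. This gave 234 of 31142 probe sets, 121 on the array RAE230A and 113 on RAE230B, for 115 of the 13811 genes named by a single symbol. Of the 234, 189 probe sets of 109 genes passed a filter on low signal (a mean of at least 7.52 on RAE230A or 6.85 on RAE230B, in log2 units) and were tested. The 45 that did not pass include every probe set of Arid4a, Arid4b, Hdac8, Phf24, Phf6 and Smarca1. The prefixes also took in 17 probe sets of 6 genes outside the families they were meant for. These are the Mllt genes and Chdh, a choline dehydrogenase of metabolism. They are counted as members and described apart.

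The left kidney was taken from male rats of 3 strains at 67 to 69 days of age. S is the inbred Dahl salt-sensitive SS/jr rat, whose blood pressure rises with dietary salt. The substrains labelled ET3x1 and ET3x2 are congenic. On general knowledge of such strains, they are S rats with a stretch of chromosome 3 from a salt-resistant strain, near Edn3, a gene for an endothelin peptide. All rats ate 0.4% NaCl chow until 39 to 41 days of age and then 2% NaCl chow for 28 days. No group stayed on low salt, so the strains and not the diets are compared. A pool held the RNA of 2 S rats or of 3 rats of a substrain in equal parts, and the pools were A to D of S, E to H of ET3x1 and I to L of ET3x2. Each of the 12 pools went on 1 array of each type, so that every group has n = 4 pools, and a p-value measures the spread between pools and not between single rats.

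Histone tails carry methyl and acetyl groups that are placed by methyltransferases and acetyltransferases, removed by demethylases and deacetylases, and bound by reader domains such as bromodomains, chromodomains and PHD fingers. ATP-driven remodellers of the SWI/SNF and CHD families slide or evict nucleosomes, and chaperones such as the HIRA complex put histones in place outside DNA replication. In the kidney, as elsewhere, most of these proteins are made in many cell types.

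Defining kidney transcripts were strongly present, with uromodulin (Umod) of the thick ascending limb at a mean signal of 14.4 in each strain, while both podocyte Nphs1 probe sets and both leukocyte Ptprc probe sets were under the filter level. Of 25 tested marker probe sets for tubule, endothelium, immune cells, fibroblasts, muscle and red cells, those of the plasma cell gene Jchain passed the test. Its probe set 1383163_at had means of 8.63 in S, 10.3 in ET3x1 and 9.85 in ET3x2, and no marker passed between the substrains. The part of plasma cells in the differences from S below was not tested. Pools A, B (both S) and J (ET3x2) had the highest first principal component scores on both arrays. They scored 14.3 to 17.8 on RAE230A and 12.3 to 16.7 on RAE230B. The other 9 pools were spread widely too, from −14.6 to 0.28 on RAE230A and from −17.0 to 3.20 on RAE230B, with G the lowest on both. Leaving out A, B and J keeps 2 S, 4 ET3x1 and 3 ET3x2 pools, and where that changed the call of a member probe set the value is given.

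The chromatin genes had the most calls between the substrains, and all of these were lower in ET3x2. At an adjusted p under 0.05 (limma, Benjamini-Hochberg over all probe sets of an array) 17 member probe sets of 14 genes were lower in ET3x2 than in ET3x1 and 0 were higher. That is 8.99% of the members tested, where 1.48% of all 21799 probe sets tested were called (1.39% lower and 0.0963% higher). The rule names Ubn2, Mphosph8 and Nipbl singly, and members were chosen with earlier results of these data known. Those genes hold 3 of the 17 calls, so the share of members called is a description. Against S, ET3x1 had 5 member probe sets of 4 genes higher and 0 lower (2.65%, with 0.44% called over all probe sets, 0.431% higher and 0.00917% lower), and ET3x2 had 0 higher and 4 of 4 genes lower (2.12%, with 0.344% over all, 0.0642% higher and 0.28% lower). At an unadjusted p under 0.05 (limma) 6 members were higher and 39 lower between the substrains, where 6.71% and 6.39% of all probe sets were. In ET3x2 against S the counts were 4 and 26 (6.89% and 3.98% over all), and in ET3x1 against S they were 22 and 6 (7.44% and 4.41%). Leaving out 1 pool gave 11 calls between the substrains without K, in place of 17. Against S it gave 3 in ET3x1 without C or E, and in ET3x2 1 without C and 2 without A, I or K. Without A, B and J together the counts were 18 between the substrains, 7 in ET3x1 against S and 1 in ET3x2 against S, where 0 of the 4 calls were kept. RNA of a whole kidney was measured, so fewer cells of a type and less RNA per cell cannot be told apart.

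Most members did not pass. The median difference between ET3x2 and ET3x1 was −0.04 over the 189 members and 0.03 over all probe sets, on the log2 scale, and 63.0% of members against 39.2% of all probe sets were negative. Between ET3x2 and S the medians were −0.03 and 0.02, with 64.0% and 41.0% negative. Between ET3x1 and S they were 0.02 and −0.0047, with 45.5% and 51.6% negative. In 32 members (16.9%) all 4 ET3x2 pools lay below all 4 ET3x1 pools, where 4.18% of all probe sets did so. The opposite separation was seen in 3 members (1.59%), where it was seen in 4.96% of all probe sets. Pools of ET3x1 lay wholly above those of S in 17 members and below in 2 (4.41% and 1.99% over all), and pools of ET3x2 in 4 and 10 (3.87% and 2.09%). The 3 comparisons share pools with each other, so their values are given side by side and not as separate evidence. Levels of different probe sets are not set against each other, since each has its own probes.

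**Figure D1:**
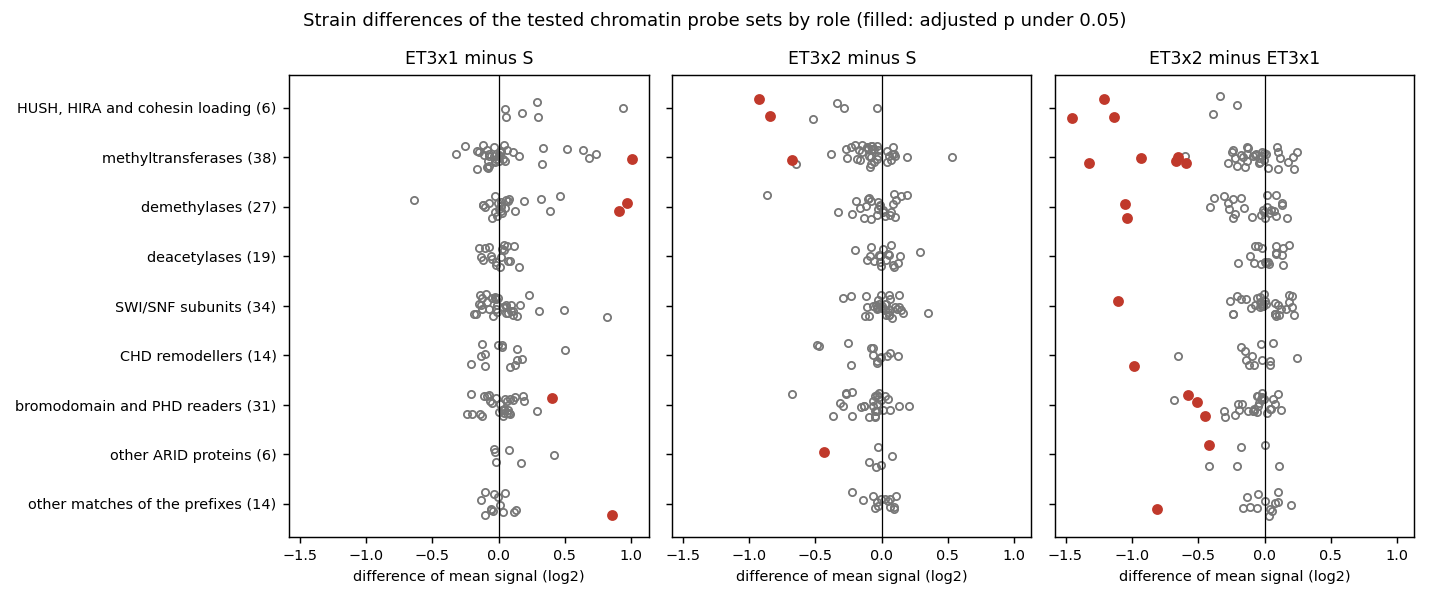
Each point is 1 of the 189 tested probe sets, placed by its role (rows, with the number tested in brackets) and by its difference of mean log2 signal between strains (horizontal axis) in ET3x1 minus S, ET3x2 minus S and ET3x2 minus ET3x1. Filled points passed at an adjusted p under 0.05, and in the third panel all 17 lie left of 0, from −1.45 to −0.42, with none among the 19 deacetylase probe sets.

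The histone chaperone, silencing and cohesin loading genes Ubn2, Mphosph8 and Nipbl were lower in ET3x2 than in ET3x1, each by one probe set at the adjusted threshold. Together they had 6 tested probe sets. All 6 had a negative difference between ET3x2 and ET3x1, from −1.45 to −0.21 with a median of −0.76, and all 6 had an unadjusted p under 0.05, while 3 passed after adjustment. All 6 were also positive in ET3x1 against S, where 0 of the 6 passed and 2 had an unadjusted p under 0.05, and negative in ET3x2 against S, where 2 passed. These genes were named singly with earlier results of these data known. Their shared direction is therefore described here and is no test of the group.

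Ubn2 encodes a ubinuclein, a subunit of the HIRA chaperone complex. Its only probe set, 1397959_at on RAE230B, gave 8.83, 8.50, 9.03 and 8.69 in S pools A to D, 9.05, 8.84, 9.22 and 9.13 in ET3x1 pools E to H, and 8.20, 7.87, 7.74 and 7.88 in ET3x2 pools I to L. All ET3x2 pools lay below every pool of the other strains, and S and ET3x1 overlapped. Ubn2 signal was 2.20-fold lower in ET3x2 than in ET3x1 (log2 difference −1.14, SE 0.12, limma adjusted p = 0.000259) and 1.79-fold lower than in S (−0.84, limma adjusted p = 0.0104). The difference from S missed the threshold without pools A, B and J together (limma adjusted p = 0.0501), while that from ET3x1 held under every alternative tried.

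Mphosph8 encodes the chromodomain protein of the HUSH complex, which silences repeats and retroelements marked by histone methylation. By its probe set 1395616_at it gave 7.996, 7.89, 8.14 and 8.06 in S pools A to D, 8.31, 8.39, 8.29 and 8.24 in ET3x1 pools E to H, and 7.37, 7.10, 6.56 and 7.35 in ET3x2 pools I to L. The ET3x2 pools were again the lowest and did not overlap the others, and the ET3x1 pools were all above the S pools. Pool K was the lowest of all and lay under the filter level of 6.85 on RAE230B. The ET3x2 mean of 7.10 was near that level, so the size of the differences depends on an unknown background and no fold is given. The difference was −1.21 log2 from ET3x1 (SE 0.14, limma adjusted p = 0.000515) and −0.93 from S (SE 0.14, limma adjusted p = 0.0120). The call against S was lost without pool C (limma adjusted p = 0.0548) and without A, B and J together (0.0998). The gene's other probe sets were less far apart, −0.39 for 1376676_a_at (SE 0.14, limma adjusted p = 0.201) and −0.21 for 1382354_at (SE 0.0823, limma adjusted p = 0.349) in ET3x2 against ET3x1.

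Nipbl encodes the protein that, with Mau2, loads cohesin onto DNA. Its probe set 1380371_at on RAE230A had the largest difference of all members. The signals were 9.54, 9.03, 8.80 and 7.69 in S pools A to D, 9.91, 9.17, 10.05 and 9.66 in ET3x1 pools E to H, and 8.34, 8.65, 7.72 and 8.27 in ET3x2 pools I to L. ET3x2 pools lay below all ET3x1 pools, whereas the S pools spread over both, from 7.69 in pool D to 9.54 in pool A. The difference between the substrains was −1.45 log2, or 2.74-fold lower in ET3x2 (SE 0.31, limma adjusted p = 0.0391). The difference stayed between −1.70 and −1.28 log2 in all 20 alternatives. The call was lost when B, E, G, H, I, K or L was left out, with an adjusted p of up to 0.173 without K. The other tested probe set, 1392470_at, differed by −0.33 (SE 0.15, limma adjusted p = 0.417), and the remaining 2 Nipbl probe sets were under the filter level. With no filter, 1 of those 2, 1384801_at, passed in ET3x1 against S (0.37, limma adjusted p = 0.00698) and between the substrains (−0.24, limma adjusted p = 0.0472).

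The sequence before the transcription start is shown for 3 examples. Ubn2 and Mphosph8 were lower in ET3x2 than in both other strains, as were Kmt2c and Arid3a, which are not shown. Kdm5a, described further on, is the gene with 2 probe sets higher in ET3x1 than in both other strains. The sequences are RefSeq's on the rat assembly GRCr8, from 250 bases before the start up to the start, on the plus strand in each case: chr4:68133011-68133260 for Ubn2, chr15:34915919-34916168 for Mphosph8 and chr4:155237874-155238123 for Kdm5a. Capitals mark matches, on either strand, to TATAAA, the CCAAT box, the GC box GGGCGG, the ETS motif CCGGAAG, the cyclic AMP response element TGACGTCA and the NRF1 core GCGCATGC.
Ubn2: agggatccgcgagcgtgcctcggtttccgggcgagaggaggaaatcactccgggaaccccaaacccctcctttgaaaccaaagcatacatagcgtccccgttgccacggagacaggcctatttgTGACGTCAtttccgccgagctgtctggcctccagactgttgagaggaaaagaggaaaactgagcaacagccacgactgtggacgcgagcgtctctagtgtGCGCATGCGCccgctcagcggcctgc
Mphosph8: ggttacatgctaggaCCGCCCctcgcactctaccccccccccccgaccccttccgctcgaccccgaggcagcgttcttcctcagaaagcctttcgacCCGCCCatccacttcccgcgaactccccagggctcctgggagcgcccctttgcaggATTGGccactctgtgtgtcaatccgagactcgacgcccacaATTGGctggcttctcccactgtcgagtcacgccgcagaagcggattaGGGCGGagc
Kdm5a: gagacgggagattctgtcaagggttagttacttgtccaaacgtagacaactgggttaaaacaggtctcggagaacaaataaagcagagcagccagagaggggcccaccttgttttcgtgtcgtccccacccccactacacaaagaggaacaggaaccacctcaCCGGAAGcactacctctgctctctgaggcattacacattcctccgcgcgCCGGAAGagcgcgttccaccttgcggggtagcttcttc
The Ubn2 sequence held 1 match to TGACGTCA and 2 overlapping matches to GCGCATGC, one per strand of a palindrome. Mphosph8 had 2 CCAAT matches and 3 GC boxes, and Kdm5a had 2 matches to CCGGAAG. In windows of 300 bases (250 before and 50 after the start), TGACGTCA was found in 1.91% of 27457 gene promoters, in 3.0% of the 9281 for genes tested on the arrays, and in 2 of the 100 member promoters that were listed. In the same order, GCGCATGC was found in 2.66%, 4.65% and 6 of 100, and CCGGAAG in 9.22%, 16.9% and 14 of 100. CCAAT was found in 37.7%, 37.4% and 38 of 100, and the GC box in 34.9%, 61.1% and 73 of 100. Member promoters were rich in CpG, with a median of 26 per window against 7 in all promoters and 20 for the genes tested. TATAAA was found in 14.3%, 7.28% and 3 of 100. For the 14 genes that differed between the substrains 11 promoters were listed. Of these, 0 held TATAAA, 3 CCAAT, 6 the GC box, 2 CCGGAAG, 1 TGACGTCA and 3 GCGCATGC. These matches describe letters only.

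**Figure D2:**
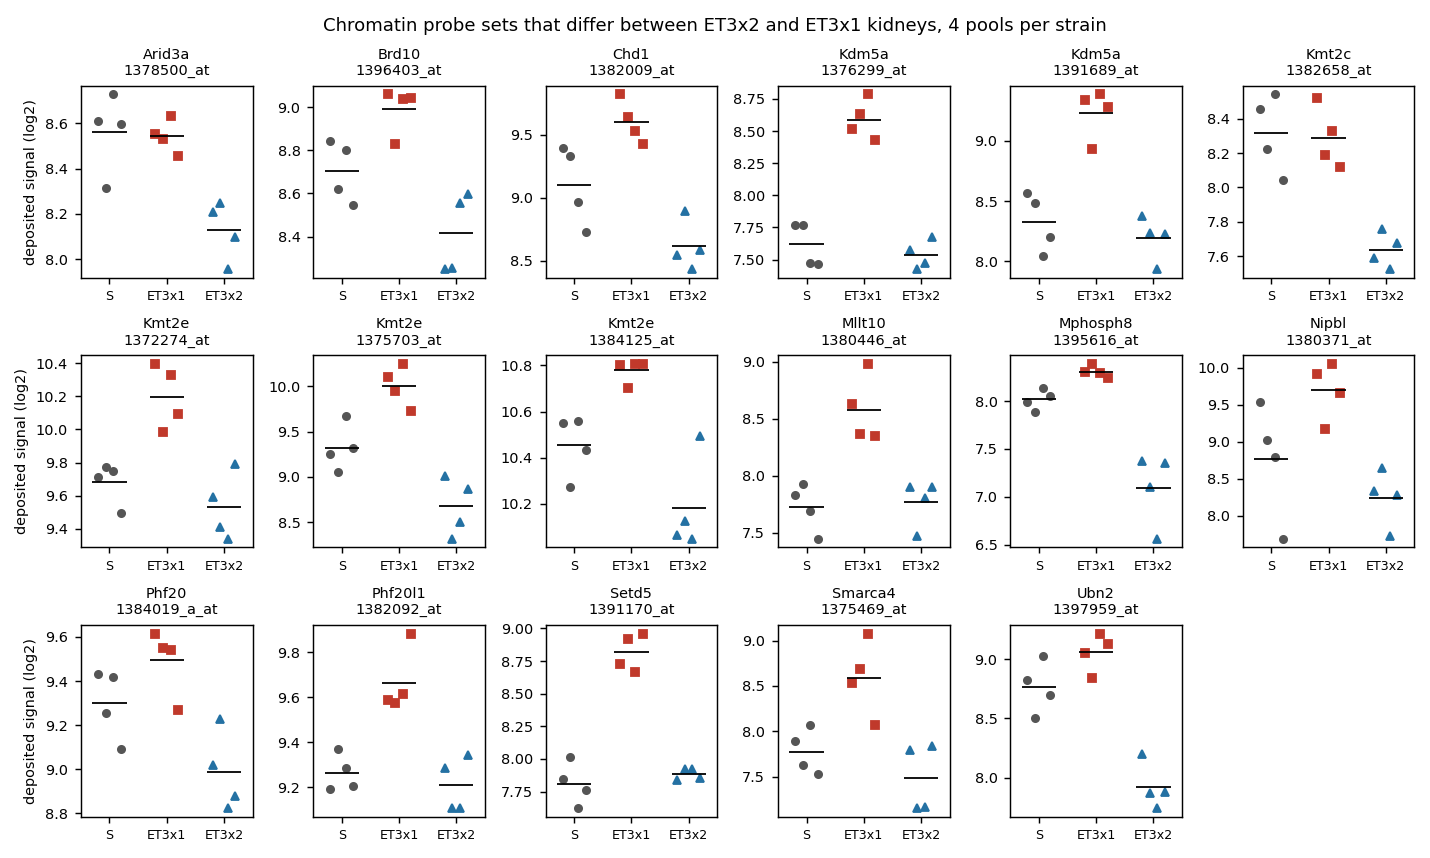
Deposited log2 signal (vertical axis, a separate scale in each panel) of the 17 member probe sets that were lower in ET3x2 than in ET3x1, with 1 point per pool and a bar at each strain's mean of 4 pools. In every panel the 4 ET3x2 pools lie below the 4 ET3x1 pools, and in 13 of the 17 the S mean lies between the means of the substrains.

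Among the methyltransferase genes, Kmt2e, Kmt2c and Setd5 were lower in ET3x2 than in ET3x1, and Setd5 was also higher in ET3x1 than in S. Of 38 tested probe sets of 20 genes, 5 were lower and 0 higher between the substrains, 1 was higher in ET3x1 than in S, and 1 was lower in ET3x2 than in S. The median of the 38 was −0.08 between the substrains, and 28 were negative. Mean signals of the tested probe sets ran from 7.17 (a probe set of Kmt2a) to 10.5 (one of Kmt2e).

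Setd5, which codes for a SET domain protein, stood out with the smallest adjusted p of all members. Its probe set 1391170_at gave 7.84, 8.01, 7.62 and 7.76 in S pools A to D, 8.73, 8.92, 8.66 and 8.96 in ET3x1 pools E to H, and 7.84, 7.92, 7.93 and 7.85 in ET3x2 pools I to L. The ET3x1 pools were all well above the pools of S and ET3x2, and these overlapped. Signal in ET3x1 was 2.01-fold that in S (1.01 log2, SE 0.0857, limma adjusted p = 9.90e-05) and 1.91-fold that in ET3x2 (−0.93 for ET3x2 minus ET3x1, SE 0.0857, limma adjusted p = 8.38e-05). Both calls held under every alternative. Between ET3x2 and S the difference was 0.07 (95% interval −0.11 to 0.26).

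Kmt2e codes for a SET and PHD finger protein of the trithorax family and had 5 tested probe sets, of which 3 differed between the substrains. Probe set 1375703_at gave 9.25, 9.06, 9.67 and 9.31 in S pools A to D, 10.10, 9.94, 10.24 and 9.72 in ET3x1 pools E to H, and 9.01, 8.32, 8.51 and 8.87 in ET3x2 pools I to L. The ET3x1 pools were the highest, the ET3x2 pools the lowest, and the S pools lay between and overlapped neither group of pools. That order appeared as a difference of −1.32 log2 or 2.50-fold between the substrains (SE 0.16, limma adjusted p = 0.00115), of 0.68 from S in ET3x1 (limma adjusted p = 0.120) and of −0.65 in ET3x2 (limma adjusted p = 0.156). The difference of ET3x2 from S passed with array weights (limma adjusted p = 0.0451). It also passed with the actin control, described further on, as a covariate (0.0231). The calls for 1372274_at (−0.67, SE 0.12, limma adjusted p = 0.0144) and 1384125_at (−0.59, SE 0.10, limma adjusted p = 0.00641) had the same direction. The first of these was lost without pool E, G or K (limma adjusted p of 0.0632, 0.0619 and 0.0755). Probe set 1392564_at differed by −0.60 with a wider spread (SE 0.16, limma adjusted p = 0.0964). Without A, B and J it passed between the substrains (−0.62, limma adjusted p = 0.00309) and in ET3x1 against S (0.998, limma adjusted p = 0.000645). With all pools it passed between the substrains with array weights, the actin covariate or only those 2 strains fitted (limma adjusted p = 0.00395, 0.00114 and 0.00412). In ET3x1 against S it passed with array weights and with the covariate (0.0495 and 0.00232). Probe set 1385422_at differed by −0.18 (SE 0.0533, limma adjusted p = 0.139).

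Kmt2c, which codes for an H3K4 methyltransferase of enhancers, was lower in ET3x2 than in both other strains. Its probe set 1382658_at gave 8.46, 8.22, 8.54 and 8.04 in S pools A to D, 8.52, 8.19, 8.33 and 8.12 in ET3x1 pools E to H, and 7.59, 7.76, 7.53 and 7.68 in ET3x2 pools I to L. The S and ET3x1 pools overlapped fully, and every ET3x2 pool lay below them. The difference was −0.65 from ET3x1 (1.57-fold, SE 0.11, limma adjusted p = 0.00743) and −0.68 from S (1.60-fold, SE 0.11, limma adjusted p = 0.0179). The call against S was lost without A, C, I or K alone (limma adjusted p of 0.0772, 0.0670, 0.0653 and 0.0821) and without A, B and J together (0.118). The second Kmt2c probe set, 1382001_at, differed between the substrains by −0.24 (SE 0.18, limma adjusted p = 0.639).

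A further methyltransferase gene, Kmt5a, is named after its values were seen, because its S pools were split. Probe set 1372458_at read 9.13 in pool A and 9.03 in B, 8.05 in C and 7.74 in D, and 8.89 to 9.30 in the 8 pools of both substrains. With all pools and no covariate, neither comparison with S passed (limma adjusted p = 0.230 for ET3x1 and 0.407 for ET3x2). With the actin covariate and all pools, ET3x1 against S passed (0.93, limma adjusted p = 0.0379). The 5' minus 3' actin signal on RAE230A was −1.27 in S pools A and B, −1.81 in C and −2.10 in D. A link to the split was not tested. Without A, B and J, S keeps only C and D, and the differences were 1.33 log2 in ET3x1 and 1.17 in ET3x2. Both would then pass, but they are given as a description, since the S pools near the substrains are those left out.

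Among the demethylase genes only Kdm5a passed with all pools and none of the alternative settings. Of 27 tested probe sets of 16 genes, 2 were higher in ET3x1 than in S, 0 passed between ET3x2 and S (unadjusted p under 0.05 for 1 higher and 3 lower, limma), and 2 were lower in ET3x2 than in ET3x1. All 4 of these calls belong to Kdm5a, an enzyme that takes methyl groups off H3K4. Tested demethylase probe sets ran from a mean signal of 7.08 (one of Kdm5a) to 9.77 (Kdm1a).

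Kdm5a was represented on both arrays. Probe set 1376299_at on RAE230A gave 7.77, 7.77, 7.47 and 7.46 in S pools A to D, 8.51, 8.63, 8.78 and 8.43 in ET3x1 pools E to H, and 7.58, 7.43, 7.47 and 7.68 in ET3x2 pools I to L. Probe set 1391689_at on RAE230B gave 8.56, 8.49, 8.05 and 8.20 in S pools A to D, 9.34, 8.93, 9.38 and 9.28 in ET3x1 pools E to H, and 8.38, 8.23, 7.94 and 8.23 in ET3x2 pools I to L. In both, the ET3x1 pools were above every pool of S and ET3x2, which overlapped each other. ET3x1 was higher than S by 0.97 log2 by the first (SE 0.10, limma adjusted p = 0.000229) and 1.88-fold by the second (0.91, SE 0.13, limma adjusted p = 0.00611). For the first, the means of 7.62 in S and 7.54 in ET3x2 were near the filter level of 7.52. Its S pools C and D and ET3x2 pools J and K lay under that level. The size of its differences depends on an unknown background, and no fold is given. ET3x2 was lower than ET3x1, with differences of −1.05 and −1.04 log2 (SE 0.10 and 0.13, limma adjusted p = 0.000160 and 0.000948). These 4 calls held under every alternative that tested the probe sets. Kdm5a probe set 1373867_at had differences of 0.39 in ET3x1 against S and −0.41 between the substrains (limma adjusted p = 0.241 and 0.142), and 1397617_at had −0.0037 and −0.0097. With array weights 1373867_at passed between the substrains (−0.38, limma adjusted p = 0.0392).

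With none of the alternative settings, the widest differences among demethylases that did not pass were those of Kdm6b 1390000_at, named for that reason after its values were seen. Its differences from S were −0.64 in ET3x1 (SE 0.28, limma adjusted p = 0.347) and −0.86 in ET3x2 (SE 0.28, limma adjusted p = 0.264). Signals of the S pools alone ran from 9.41 to 10.56. With array weights Kdm6b passed in ET3x2 against S (−1.002, limma adjusted p = 0.0463), and Kdm5b 1376347_at passed between the substrains (−0.41, 0.0418).

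Among the reader genes, Phf20, Phf20l1 and Brd10 were lower in ET3x2 than in ET3x1. Of 31 tested probe sets of 21 bromodomain and PHD finger genes, 3 were lower and 0 higher between the substrains, 24 were negative and the median was −0.05. Against S, 1 was higher in ET3x1, and 0 passed in ET3x2, where 7 lower and 0 higher had an unadjusted p under 0.05 (limma).

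Phf20 codes for a reader of the NSL acetyltransferase complex and lies on chromosome 3. By probe set 1384019_a_at the signals were 9.43, 9.25, 9.42 and 9.09 in S pools A to D, 9.62, 9.55, 9.54 and 9.27 in ET3x1 pools E to H, and 9.02, 9.23, 8.82 and 8.88 in ET3x2 pools I to L. ET3x2 pools were below all ET3x1 pools by a narrow gap, 9.23 against 9.27, and the S pools overlapped both groups. The difference between the substrains was −0.51 log2 or 1.42-fold (SE 0.11, limma adjusted p = 0.0391), and the call was lost without B, E, F, G, I, K or L, up to 0.173 without K. A second Phf20 probe set, 1376931_at, gave 8.71, 8.45, 9.13 and 8.60 in S pools A to D, 8.91, 8.54, 9.06 and 8.39 in ET3x1 pools E to H, and 8.34, 7.98, 7.74 and 8.12 in ET3x2 pools I to L. All its ET3x2 pools lay below all pools of S and ET3x1. It differed by −0.68 from S and by −0.68 from ET3x1 (SE 0.17, limma adjusted p = 0.156 and 0.0754), so neither passed. Some alternatives called it. Against S it passed with array weights and with the actin covariate (limma adjusted p = 0.0368 and 0.0434). Against ET3x1 it passed with array weights and with only those 2 strains fitted (limma adjusted p = 0.0113 and 0.0469). The third tested probe set, 1379408_at, differed by −0.13 from S and by −0.0061 from ET3x1.

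Phf20l1, a relative of Phf20 with Tudor domains, had probe set 1382092_at at 9.19, 9.37, 9.28 and 9.20 in S pools A to D, 9.59, 9.57, 9.62 and 9.88 in ET3x1 pools E to H, and 9.29, 9.11, 9.11 and 9.35 in ET3x2 pools I to L. All ET3x1 pools were above all other pools, with pool H the highest, and S and ET3x2 overlapped. ET3x1 was 0.40 log2 or 1.32-fold higher than S (SE 0.0833, limma adjusted p = 0.0464), a call lost in 14 of 20 alternatives (up to 0.143, without A, B and J). The difference of ET3x2 from ET3x1 was −0.45 (SE 0.0833, limma adjusted p = 0.0112), and this call was lost without pool K (0.0571).

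Brd10 encodes a bromodomain protein. Its probe set 1396403_at gave 8.84, 8.62, 8.80 and 8.55 in S pools A to D, 9.06, 8.83, 9.04 and 9.04 in ET3x1 pools E to H, and 8.25, 8.25, 8.56 and 8.60 in ET3x2 pools I to L. The ET3x1 pools lay above all ET3x2 pools, and the S pools overlapped both. The substrains differed by −0.58 log2 or 1.49-fold (SE 0.10, limma adjusted p = 0.00725), and the call held under every alternative.

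Of the remodellers, the ATPase genes Chd1 and Smarca4 were lower in ET3x2 than in ET3x1, each by 1 probe set. Chd1, which binds methylated H3K4 and spaces nucleosomes along transcribed genes, gave 9.40, 9.33, 8.97 and 8.73 in S pools A to D, 9.82, 9.64, 9.53 and 9.43 in ET3x1 pools E to H, and 8.55, 8.90, 8.44 and 8.59 in ET3x2 pools I to L by probe set 1382009_at. The substrains did not overlap, and the S pools overlapped ET3x2. The difference was −0.99 log2 or 1.98-fold (SE 0.14, limma adjusted p = 0.00277) and the call held under every alternative. Without A, B and J this probe set also passed in ET3x1 against S (0.76, limma adjusted p = 0.00708). With all pools and the actin covariate, 1382009_at passed in ET3x1 against S (0.59, limma adjusted p = 0.00483) and in ET3x2 against S (−0.57, 0.00673). With array weights it passed in ET3x2 against S (−0.60, limma adjusted p = 0.0422). With all pools and none of the alternative settings, it was the only one of 14 tested CHD probe sets to pass in any comparison. The second tested Chd1 probe set, 1392830_at, differed by −0.65 with an SE of 0.19 (limma adjusted p = 0.126), and passed without A, B and J (−0.75, limma adjusted p = 0.00635). With all pools it passed with array weights, the actin covariate or only those 2 strains fitted (limma adjusted p = 0.00214, 9.63e-05 and 0.0159). With the covariate it was also lower in ET3x2 than in S (−0.60, limma adjusted p = 0.00468). Chd7 1378361_at, under the filter level, passed between the substrains with no filter (−0.50, limma adjusted p = 0.0185), as named after its values were seen.

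Smarca4 encodes BRG1, a catalytic subunit of SWI/SNF. Probe set 1375469_at gave 7.89, 7.63, 8.07 and 7.53 in S pools A to D, 8.54, 8.69, 9.08 and 8.07 in ET3x1 pools E to H, and 7.79, 7.15, 7.16 and 7.84 in ET3x2 pools I to L. ET3x1 pools were above all ET3x2 pools, the S pools overlapped ET3x2, and S pool C and ET3x1 pool H both read 8.07. Its ET3x2 mean of 7.49 was under the filter level, so the size of the difference depends on an unknown background and no fold is given. The difference was −1.11 log2 (SE 0.20, limma adjusted p = 0.0178). The call was lost without E, G, J or K alone, up to 0.0887, and without A, B and J together (0.0514). The SWI/SNF role was set by symbol, so it also holds Smarca5, an ISWI ATPase, and Smarcad1, which are not SWI/SNF subunits. With all pools and none of the alternative settings, the other 33 tested probe sets of the role did not pass in any comparison. With array weights, Smarcd1 1371767_at (0.24, limma adjusted p = 0.0416) and Smarcad1 1379438_at (−0.25, 0.0391) passed between the substrains. The median of all 34 was −0.01 between the substrains.

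Arid3a, a DNA-binding ARID transcription factor gene outside SWI/SNF, gave 8.61, 8.32, 8.73 and 8.60 in S pools A to D, 8.55, 8.53, 8.63 and 8.46 in ET3x1 pools E to H, and 8.21, 8.25, 7.96 and 8.10 in ET3x2 pools I to L by probe set 1378500_at. Its ET3x2 pools were below every other pool, and S and ET3x1 overlapped. The difference of ET3x2 was −0.42 from ET3x1 (SE 0.0883, limma adjusted p = 0.0251) and −0.43 from S (limma adjusted p = 0.0486). The first call was lost without E, F, G, K or L (up to 0.108) and the second in 15 of 20 alternatives (up to 0.196), among them that without A, B and J (0.0501). Of the 6 tested probe sets of ARID genes outside SWI/SNF no other one passed with none of the alternative settings. Arid5b 1382312_at passed between the substrains with array weights and with only those 2 strains fitted (limma adjusted p = 0.0125 and 0.0377). In ET3x1 against S it passed with array weights (limma adjusted p = 0.0495). Arid4a 1376523_at, under the filter level and named after its values were seen, passed with no filter in ET3x1 against S (0.68, limma adjusted p = 0.0197) and between the substrains (−0.82, limma adjusted p = 0.00312).

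The deacetylase genes gave no call in any comparison. Of their 19 tested probe sets of 15 genes, 0 passed in limma, and unadjusted p under 0.05 was met by 1, in ET3x2 against S. The exception was the sirtuin gene Sirt2, whose probe set 1375413_at was at 11.05 ± 0.09 in S and 11.33 ± 0.12 in ET3x2 (SD, n = 4), a difference of 0.29 (SE 0.10, limma adjusted p = 0.308). Between the substrains the 19 lay from −0.20 for Hdac2 (95% interval −0.52 to 0.12) to 0.19 for Hdac4 (95% interval −0.01 to 0.38), with a median of 0.03 and 12 positive. A miss of the threshold does not show equal levels, and those intervals bound the differences at these endpoints.

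Among the matches outside those families, the Mllt genes and Chdh, Mllt10 passed, a gene whose protein is a cofactor of the histone methyltransferase Dot1l. By probe set 1380446_at the signals were 7.84, 7.92, 7.69 and 7.45 in S pools A to D, 8.63, 8.36, 8.98 and 8.35 in ET3x1 pools E to H, and 7.90, 7.48, 7.80 and 7.90 in ET3x2 pools I to L. The ET3x1 pools were above all others, and S and ET3x2 overlapped. ET3x1 was 1.81-fold higher than S (0.85 log2, SE 0.15, limma adjusted p = 0.0149), which was lost without C (0.0531), without E (0.0621) and with only those 2 strains fitted (0.0559). It was 1.75-fold higher than ET3x2 (−0.81 for ET3x2 minus ET3x1, SE 0.15, limma adjusted p = 0.0102). Without these 14 tested probe sets, 16 of 175 members (9.14%) were lower in ET3x2 than in ET3x1.

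Probe sets of one gene did not always give the same result. Of the 14 genes that differed between the substrains, 13 had 2 or more tested probe sets, and in none of the 13 did all of them pass. With array weights, 1 of the alternatives, all tested probe sets of Mphosph8, Nipbl, Kmt2e and Chd1 passed between the substrains. Their 41 probe sets, with that of Ubn2, divide into 17 that passed and 24 that did not, of which 21 had a negative difference. To test the disagreement itself, the difference of 2 probe sets within each pool was compared between strains by limma, with adjustment over all 4906 such combinations on the arrays. Between the substrains 20 of the 137 member combinations passed, in 9 of 44 genes, where 3.97% of all combinations did. A combination can pass only where a probe set differs between strains, and members were called more often (8.99% against 1.48% of all probe sets). The share of combinations is thus not separate from the share of calls. Both differences had the same sign in 95 of the 137 (69.3%), where 60.9% of all combinations did. Leaving out 1 pool gave 10 without G, 11 without K and 13 without E. In ET3x1 against S 8 passed, in Setd5, Kdm5a and Mllt10 (1.79% over all), and in ET3x2 against S 0 passed (0.183% over all).

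Setd5 was the clearest case. Its probe set 1391170_at rose by 1.01 log2 in ET3x1 over S, while 1378705_at, 1399070_at and 1394520_at had differences of −0.03, 0.07 and −0.07. The gap between 1391170_at and 1394520_at was 1.08 (limma adjusted p = 9.95e-05) in ET3x1 against S and −0.92 (0.000170) between the substrains. In Kdm5a, 1376299_at and 1391689_at were apart from 1397617_at by −1.04 and −1.03 between the substrains (limma adjusted p = 0.000595 and 0.00387). The mean of 1397617_at, 7.08, was near the filter level of 6.85 on RAE230B, so the size of its difference depends on an unknown background. Set against 1373867_at, with a mean of 8.65, the split was less clear. The gap to 1376299_at passed (0.64, limma adjusted p = 0.0379) but was lost in 6 of 16 alternatives. That to 1391689_at did not pass (0.62, limma adjusted p = 0.1365). For Mllt10, probe set 1380446_at stood apart from 1394723_at by 0.98 in ET3x1 against S (limma adjusted p = 0.00264). In these 3 genes the ET3x1 pools were high for some probe sets and overlapped S for others.

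In other genes with a lower signal in ET3x2 the probe sets differed too. Set against a second probe set of the gene, the difference between the substrains was −1.14 for Kmt2e 1375703_at less 1385422_at (limma adjusted p = 0.00179). It was −1.29 for Smarca4 1375469_at less 1385011_at (limma adjusted p = 0.00879) and −1.004 for Mphosph8 1395616_at less 1382354_at (0.00556). These held under each of the 16 alternatives run for this test. The combinations of Nipbl (−1.12, limma adjusted p = 0.0383), Brd10 (−0.68, 0.0379, and −0.52, 0.0222) and Phf20 (−0.50, 0.0334) were lost in 9, 8, 5 and 6 of the 16, up to 0.142, 0.116, 0.0785 and 0.123. The second Nipbl probe set, 1392470_at, had a mean of 7.06, near the filter level of 6.85 on RAE230B. The size of its difference therefore depends on an unknown background. Which transcript ends each probe set reads was not analysed here.

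**Figure D3:**
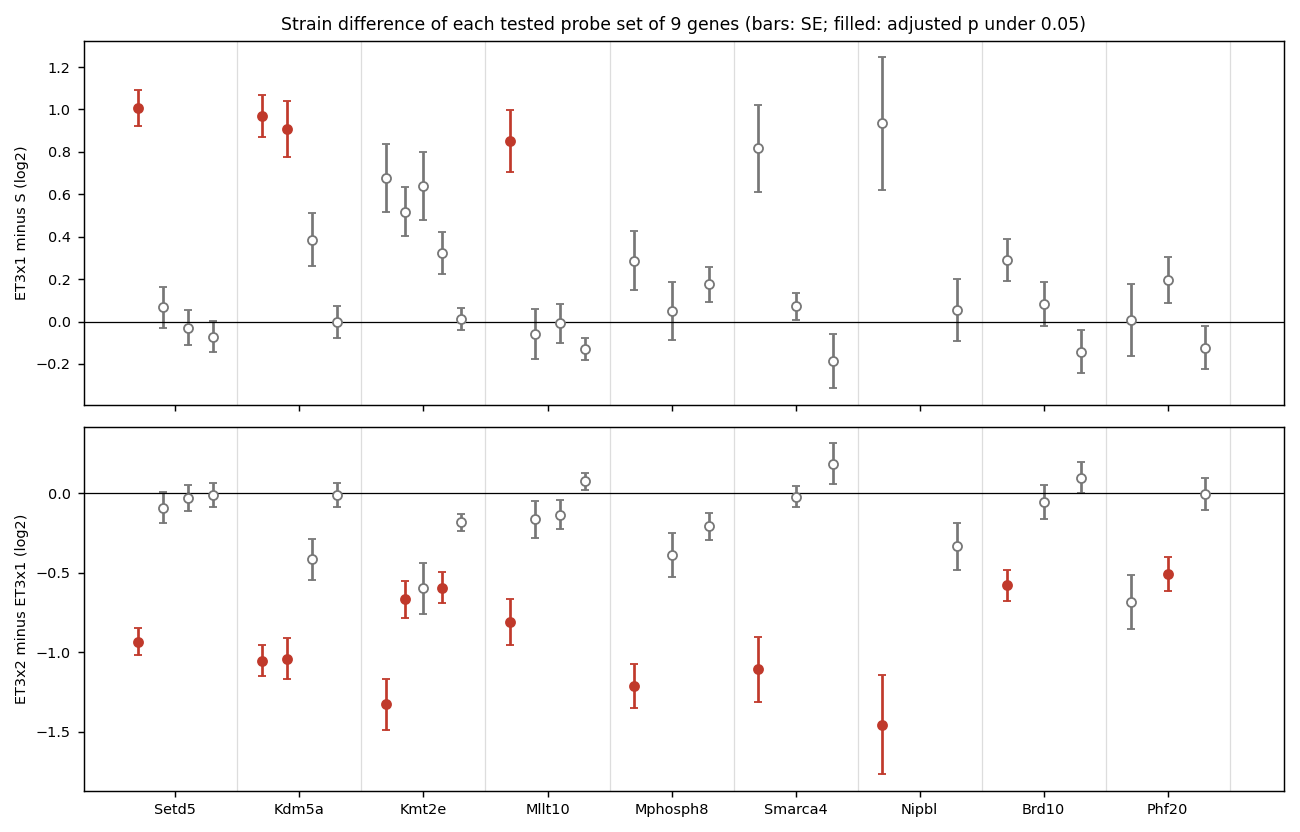
Difference in mean log2 signal (vertical axes, bars show SE) of every tested probe set of the 9 genes whose probe sets differed from each other between the substrains, in ET3x1 minus S (top) and ET3x2 minus ET3x1 (bottom), in the same order in both panels. Filled points passed at an adjusted p under 0.05. Each gene has a filled point below 0 in the bottom panel beside an open one nearer to 0, such as Setd5 at −0.93 with others from −0.09 to −0.01.

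Genes that work with these proteins held few calls. Of 137 tested probe sets of 88 partner genes in the HUSH, HIRA, cohesin, NSL, acetyltransferase, Polycomb, DNA methylation, NuRD, Sin3, NCoR, ISWI, INO80 and histone chaperone lists, 3 were lower in ET3x2 than in ET3x1 and 0 higher (2.19%, beside 1.48% over all probe sets), and the median difference was 0.0061. The 3 were Kat6a 1391701_at, an acetyltransferase (−0.87, SE 0.18, limma adjusted p = 0.0226), Tbl1x 1379469_at of the NCoR corepressor (−0.84, limma adjusted p = 0.0497), and Atrx 1385006_at, a remodeller that with Daxx deposits a histone H3 variant (−0.32, limma adjusted p = 0.0339). They were lost in 4, 12 and 9 of 20 alternatives, with an adjusted p of up to 0.105, 0.181 and 0.145. Gatad2b 1392552_at of NuRD was higher in ET3x1 than in S (0.66, limma adjusted p = 0.0374, lost in 10 of 19 alternatives, up to 0.252). In ET3x2 against S 0 partners passed, with 4 higher and 9 lower at an unadjusted p under 0.05 (limma).

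The partner lists nearest to Mphosph8, Nipbl, Phf20 and Ubn2 were looked at singly. None of the 6 HUSH partner probe sets passed between the substrains (limma, 1 higher and 0 lower at an unadjusted p under 0.05), and their median was 0.09. For the 21 cohesin probe sets 0 passed, 1 was higher and 1 lower at an unadjusted p under 0.05, and the median was 0.0025. Of 10 NSL probe sets 0 passed and 1 was higher at an unadjusted p under 0.05. Of 8 probe sets in the list of HIRA and other histone H3 variant chaperones, that of Atrx alone passed.

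In genome order the called genes were spread over several chromosomes, and chromosome 4 held the most. It carried 26 tested member probe sets of 12 genes, of which 8 were lower in ET3x2 than in ET3x1, in Ubn2, Kdm5a, Kmt2c, Kmt2e and Setd5. Of all 877 tested probe sets placed on chromosome 4, 18 were called in that comparison (2.05%), so that these 8 are among the 18. On chromosome 3 RefSeq orders the member genes Ehmt1, Brd3, Phf19, Phf21a, Phf20 and Chd6, followed by Edn3. Of these, Phf20 alone passed in any comparison with all pools and none of the alternative settings. The largest difference of the others between the substrains was that of Brd3 1372775_at at −0.30 (limma adjusted p = 0.126). With array weights, Brd3 1372775_at (−0.358, limma adjusted p = 0.0134) and Phf21a 1374078_at (−0.355, 0.0146) passed between the substrains. Phf21a 1374078_at then also passed in ET3x2 against S (−0.378, limma adjusted p = 0.0367). The borders of the introgressed segments are not given in the labels.

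The 17 probe sets lower in ET3x2 moved together across pools, as their choice from this comparison requires. Their mean deviation from the 12-pool mean was 0.37 to 0.59 in the ET3x1 pools, −0.58 to −0.30 in the ET3x2 pools and −0.25 to 0.07 in the S pools, where D was lowest. Over all 189 tested members it was 0.03 to 0.10 in ET3x1, −0.10 to −0.04 in ET3x2 and −0.10 to 0.06 in S. The actin control, whose 5' minus 3' log2 signal on RAE230A is nearer to 0 where RNA is more complete, was −2.02 to −1.66 in ET3x1, −1.83 to −1.14 in ET3x2 and −2.10 to −1.27 in S. With that control as a covariate 17 of the 17 calls between the substrains were kept, and 20 members were called in all. Without A, B and J 16 of the 17 were kept.

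**Figure D4:**
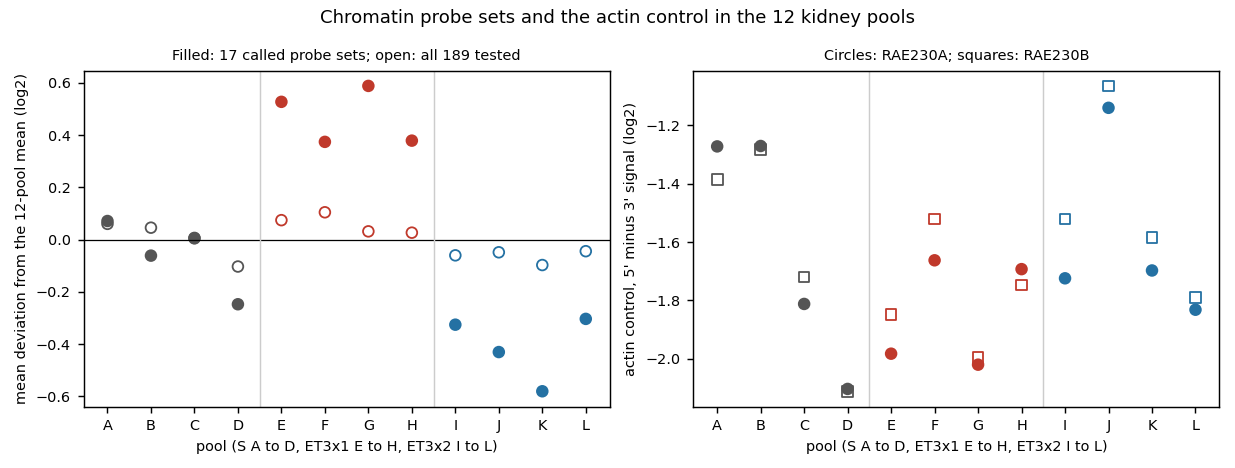
Left, mean deviation of log2 signal from the 12-pool mean in each pool, over the 17 probe sets called between ET3x2 and ET3x1 (filled) and over all 189 tested members (open). Right, 5' minus 3' log2 signal of the actin control on RAE230A (circles) and RAE230B (squares). The filled points lie at 0.37 or higher in the ET3x1 pools and at −0.30 or lower in the ET3x2 pools, by the choice of these probe sets, while pools A, B and J have the highest actin values on both arrays.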

How the data were processed

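Members and gene lists were chosen with earlier results of these data known. The deposited tables hold 1 value per probe set and pool, treated as log2 signal from their range (4.97 to 15.2 on RAE230A, 4.10 to 14.3 on RAE230B). The authors' summarisation and normalisation are not given in the sources used here. Column medians lay within 8.49 to 8.60 and 7.55 to 7.62, and the deposited log2 values were used without further scaling. Per the labels' protocols, cDNA was primed with oligo(dT), so probe sets read mostly 3' ends.

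Probe sets with a 12-pool mean under the 30th percentile of their array were left out. The remaining 21799 were fitted with R 4.3.3 and limma 3.58.1 (lmFit, then eBayes with trend), all 3 strains together and no covariate, two-sided, with Benjamini-Hochberg adjustment per array and contrast, and called at an adjusted p under 0.05. Folds are 2 to the power of log2 differences. A second fit took the difference of 2 probe sets of a gene within a pool as its value. There were 20 alternatives (filter, quantile normalisation, untrended prior, array weights, actin covariate, only 2 strains, without A, B and J, each pool left out) and 16 for the second fit. The 2 fits were tested on simulated data. Arrays give no read depth, and their number limits the precision.

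Named are every probe set of Ubn2, Mphosph8, Nipbl and Phf20, every called member, the smallest p of a role without a call, genes whose probe sets differed by the second fit, called partners, and the lowest and highest signal of a role. Others are said to have been chosen after their values were seen. Of the member probe sets, 1 had no RefSeq gene match, and probe sets with several symbols were left out. Promoters were matched by gene identifier to RefSeq on GRCr8, taking the first listed start of a gene, for 100 of 115 genes. Python 3.11.15 with matplotlib 3.10.9 drew the plots.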

Additional observations from a re-analysis of the deposited data

Results flagged for a closer look

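Over the 40 named probe sets, 120 groups of 4 pools were looked at for a pool that stood apart from the other pools of its strain (Dixon's test), and 9 were found, where chance gives about 1 in 20. Of these, 3 were S pool D: Brd10 1390135_at at 8.32 with the others at 7.85 to 7.92, Phf20 1377532_at at 6.67 with the others at 6.39 to 6.42, and Mphosph8 1376676_a_at at 8.79 with the others at 9.43 to 9.52. In ET3x1, pool F was low for Brd10 1396403_at (8.83, others 9.04 to 9.06) and for Kmt2e 1384125_at (10.70, others 10.80 to 10.81), and pool H was high for Phf20l1 1382092_at (9.88, others 9.57 to 9.62). In ET3x2, pool L was high for Kmt2e 1384125_at (10.49, others 10.05 to 10.13) and for Mllt10 1373038_at (9.01, others 8.79 to 8.81), and pool I was low for Setd5 1378705_at (8.67, others 8.82 to 8.84). Of the probe sets named here, Brd10 1396403_at, Kmt2e 1384125_at and Phf20l1 1382092_at were called between the substrains, and the first 2 calls held with each pool left out.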

How the results depend on the processing

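Of the 17 calls between ET3x2 and ET3x1, 11 held in every alternative that tested them, as did 3 of the 5 between ET3x1 and S and 0 of the 4 between ET3x2 and S, and no called result changed sign. Where a call ended, the cause was not tested. In ET3x1 against S, 8 members were called with the actin covariate and 3 with only those 2 strains fitted, and 3 to 5 with 1 pool left out. In ET3x2 against S, 11 were called with array weights, 9 with the actin covariate and 1 without pools A, B and J, namely Kmt5a with 2 S pools remaining, with 1 to 4 when 1 pool was left out. Between the substrains, 34 were called with array weights (2 higher, 32 lower), and 11 to 22 with 1 pool left out, the fewest without K and the most without D. For probe sets of one gene, 15 combinations differed in ET3x1 against S with the actin covariate, where 8 did otherwise, and 6 to 10 with 1 pool left out. In ET3x2 against S 1 differed with the actin covariate and 2 without A, B and J, and 0 to 1 with 1 pool left out. Between the substrains 10 to 21 differed with 1 pool left out, the fewest without G. No paired analysis was possible because each pool letter belongs to 1 strain. Pools of 2 or 3 rats, 4 per strain, limit what could be detected, and low signals have an unknown background.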
